A study of Homo sapiens with 18 samples.

Results

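Cells of the established human embryonic kidney line HEK293T were compared without and with the autophagy enzyme ATG7. The comparison uses 6 of the 18 libraries of the series: 3 of ATG7-/- cells and 3 of wild-type cells. Both groups were grown in medium with serum and then kept without serum for 24 h before total RNA was taken, so the wild-type cells were serum-starved too. The labels name all libraries large RNA, so values of very short RNAs need not reflect their levels in the cells. The ATG7-/- libraries come from 1 clone, named F2 in the labels, so the loss of ATG7 and the passage through a single clone cannot be told apart. The 3 libraries of a group are labelled biological replicates, and p-values measure the spread between them. A second knockout, ATG12-/- cells of clone D9 (3 libraries, the same 24 h without serum), is used to ask which differences set the ATG7-/- clone apart from another clone. The extracellular vesicles (EVs) released by ATG7-/- and wild-type cells (3 libraries each) give values in samples that the cell comparison did not use.

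ATG7 is the activating enzyme of a ubiquitin-like reaction. It charges LC3 and its relatives, which are then passed through ATG3 to the lipid phosphatidylethanolamine, and it charges ATG12, which is passed through ATG10 to ATG5. The ATG12-ATG5 conjugate with ATG16L1 directs LC3 to membranes, where lipid-bound LC3 helps autophagosomes form and receive cargo. RNA levels do not show conjugation itself, which happens between proteins.

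ATG7 RNA did not mark the knockout. ATG7 had 8.06, 11.2 and 12.9 TPM (a share of each library corrected for transcript length) in ATG7-/- cells and 8.14, 11.1 and 13.1 TPM in wild-type cells. The groups overlapped, and the log2 fold change of ATG7 was 0.05 ± 0.27 (SE; limma, adjusted p = 0.949). Its 4959-nt coding transcript had 6.41, 10.1 and 9.19 TPM in ATG7-/- cells and 7.12, 6.85 and 9.43 TPM in wild-type cells. Of that transcript 32.2% lies opposite exons of VGLL4. The strand setting is not given in the sources used here, so part of this signal could belong to either strand. ATG12 had 11.9, 16.5 and 6.06 TPM in ATG7-/- cells and 10.2, 7.61 and 13.5 TPM in wild-type cells, also overlapping (0.13 ± 0.38, limma adjusted p = 0.901). A short edit in a coding exon need not change the RNA level, so these values do not check the genotype.

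The deposited TPM carry no read counts, but their low values fall on steps. Dividing by the value of a single read, worked out per library from these steps, turned most low values checked into whole numbers within 0.03. The share was 68.5% to 75.5% over the 18 libraries, for transcripts of 300 to 3000 nt from genes with 1 transcript. Genes with more transcripts were not part of this check. By the value of a single read, the ATG7-/- cell libraries held 896298, 702546 and 436825 read equivalents and the wild-type ones 482500, 1095999 and 896127. Levels in read equivalents are given as RPM, scaled to 1000000 read equivalents per library. For a 110-nt transcript 1 read was worth 75.6, 98.6 and 157 TPM in ATG7-/- cells and 150.3, 60.2 and 82.0 TPM in wild-type cells, so a high TPM of a short RNA can rest on a single read. Markers typical of HEK293 cells summed to 146 to 195 TPM in ATG7-/- cells and 122 to 151 TPM in wild-type cells, with 8 of 12 above 0 in all 6 libraries and PAX8 at 0. Blood cell markers summed to 6.84 to 12.1 TPM in ATG7-/- cells and 6.04 to 14.1 TPM in wild-type cells, with CD3E, MS4A1, ITGAM and HBB at 0. Fibroblast markers summed to 14.0 to 31.0 and 15.9 to 26.1 TPM, endothelial ones to 4.23 to 5.37 and 5.13 to 6.69 TPM, and hepatocyte ones to 0 to 0.852 and 0.736 to 1.76 TPM, in ATG7-/- and wild-type cells in that order.

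**Figure D1:**
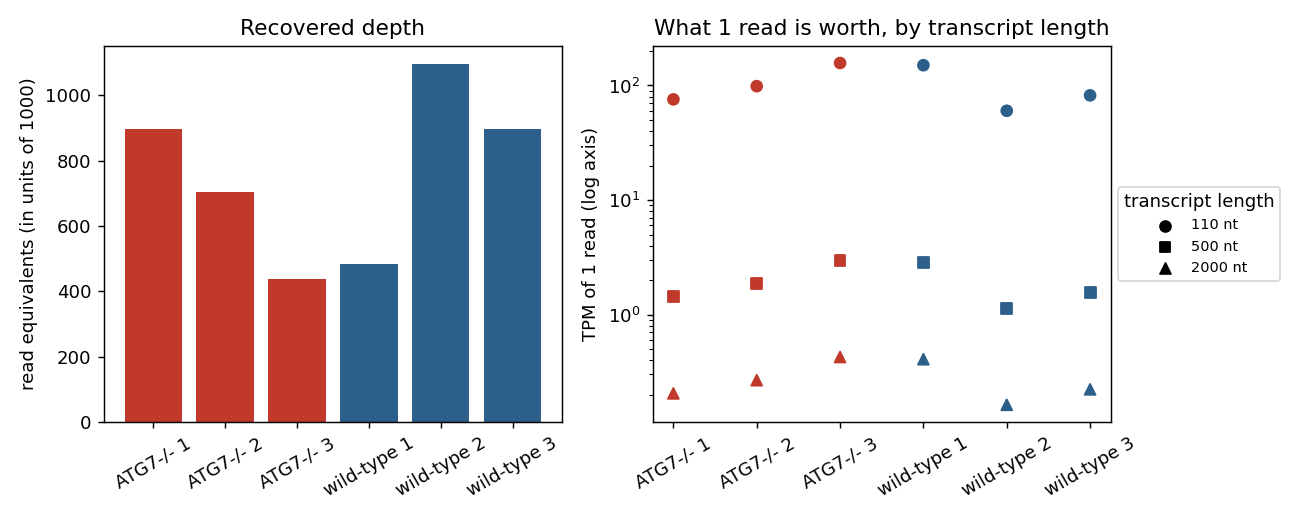
Left, read equivalents recovered from the TPM steps in each ATG7-/- and wild-type cell library (axis in units of 1000). Right, the TPM that 1 read is worth at 110, 500 and 2000 nt (log axis): at 110 nt it lies between 60.2 and 157 TPM, so a single read of a short RNA outweighs many reads of a long mRNA.

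Few genes differed on the deposited TPM. Of 22471 genes tested on log2(TPM + 1), 45 (0.2%) passed an adjusted p of 0.05 (limma with Benjamini-Hochberg adjustment): 19 were higher (0.0846%) and 26 lower (0.116%) in ATG7-/- cells. Without adjustment 3241 genes had p below 0.05. The calls split by depth. Of the 26 lower genes, 19 had at most 10 read equivalents in the 3 wild-type libraries together, 20 were at 0 in all 3 ATG7-/- libraries and 7 had a leading transcript under 200 nt, against 3.04% of all genes tested. Of the 19 higher genes, 7 had at most 10 read equivalents in ATG7-/- cells and 6 were at 0 in wild-type cells. The count was 5 without wild-type library 1, 11 without wild-type library 3, 24 without wild-type library 2 and 29 without ATG7-/- library 3. In all, 2 genes, AF106564.1 and HOXB-AS4, were called whichever of the 6 libraries was left out.

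The well-read losses were led by a noncoding RNA at a neurofilament gene. AF106564.1 is annotated antisense (chr8:24912165-24914717, minus strand, GRCh38), with 66.8% of it opposite exons of NEFM, which encodes the medium neurofilament chain. AF106564.1 had 2.81, 2.64 and 4.53 TPM in ATG7-/- cells, 51.9, 50.1 and 39.5 TPM in ATG12-/- cells and 38.1, 40.8 and 37.2 TPM in wild-type cells. All 3 ATG7-/- libraries lay far below the other 6, and the gene fell by 3.16 ± 0.24 on the log2(TPM + 1) scale against wild-type (limma, adjusted p = 0.00241). The HOXB cluster antisense RNA HOXB-AS4 (chr17:48628675-48634932) had 2.27, 2.96 and 7.06 TPM in ATG7-/- cells, 320.2, 206 and 241 TPM in ATG12-/- cells and 108, 277 and 264 TPM in wild-type cells. It fell by 5.34 ± 0.47 (adjusted p = 0.00589), with no overlap. Part of that size came from a 214-nt transcript at 0 in ATG7-/- cells, and its 566-nt transcript was at 2.27, 2.96 and 7.06 TPM in ATG7-/- cells against 28.6, 37.0 and 17.9 TPM in wild-type cells. PIN4, a peptidyl-prolyl isomerase gene on the X chromosome, had 12.1, 14.9 and 14.2 TPM in ATG7-/- cells and 52.8, 47.0 and 34.2 TPM in wild-type cells and fell by 1.55 ± 0.21 (adjusted p = 0.0451). OSCP1 had 0, 1.15 and 0 TPM in ATG7-/- cells and 12.2, 15.3 and 12.9 TPM in wild-type cells. That is 1 read equivalent against 31, a level 25.5-fold lower with an exact 95% counting interval of 4.25 to 1039 (adjusted p = 0.0186 on TPM). Counting intervals cover counting error only, since PCR copies of 1 molecule cannot be told from separate molecules.

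Among the well-read gains, FMO1, a flavin-containing monooxygenase, had 452, 498 and 492 TPM in ATG7-/- cells and 223, 222 and 229 TPM in wild-type cells. The groups did not overlap and each was tight, and FMO1 rose by 1.16 ± 0.16 (adjusted p = 0.0396). Nearly all of it lay in a 512-nt processed transcript, which had 451, 497 and 491 TPM in ATG7-/- cells and 223, 222 and 228 TPM in wild-type cells, and not in a coding transcript. CD72, known as a co-receptor of B cells, had 38.3, 39.6 and 37.2 TPM in ATG7-/- cells and 9.42, 14.2 and 10.4 TPM in wild-type cells, a rise of 1.76 ± 0.22 (adjusted p = 0.0303). NPDC1, a gene linked to neural proliferation control, had 127, 114 and 147 TPM in ATG7-/- cells and 49.5, 46.3 and 50.7 TPM in wild-type cells, a rise of 1.45 ± 0.16 (adjusted p = 0.0184). In each of these 3 genes the lowest ATG7-/- library was above the highest wild-type one. BCAS4 had 49.8, 90.3 and 57.7 TPM in ATG7-/- cells and 21.8, 15.8 and 15.3 TPM in wild-type cells (1.88 ± 0.27, adjusted p = 0.0486). GK-AS1, antisense to the glycerol kinase gene, had 105, 113 and 102 TPM in ATG7-/- cells and 44.4, 31.3 and 36.8 TPM in wild-type cells (1.57 ± 0.18, adjusted p = 0.0184). ADGRB1, an adhesion G protein-coupled receptor, had 5.26, 4.79 and 6.45 TPM in ATG7-/- cells and 0.271, 0.804 and 0.443 TPM in wild-type cells (2.14 ± 0.30, adjusted p = 0.0486). AC005481.1, an antisense RNA on chromosome 7, had reads almost only in the ATG7-/- libraries, with 31, 24 and 11 read equivalents in ATG7-/- cells, 0, 2 and 0 in ATG12-/- cells and 0, 1 and 0 in wild-type cells. Its level was 80.2-fold higher in ATG7-/- than in wild-type cells, with an exact 95% counting interval of 13.9 to 3216 (adjusted p = 0.0184 on TPM).

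**Figure D2:**
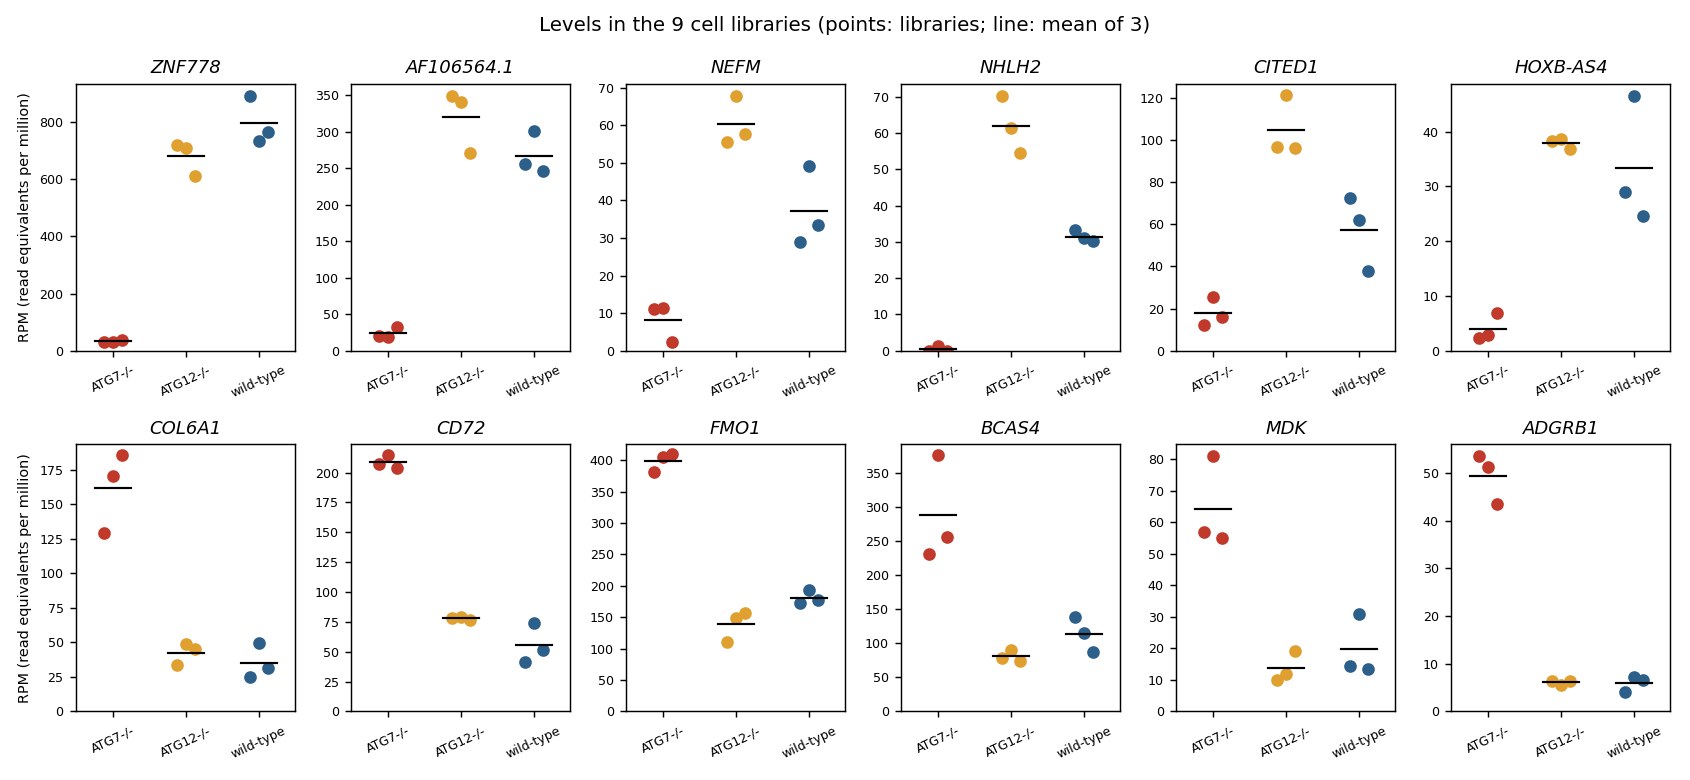
Levels in RPM for 12 genes in the 3 ATG7-/-, 3 ATG12-/- and 3 wild-type cell libraries; each point is a library and the black line is the mean of 3. ZNF778, AF106564.1, NEFM, NHLH2, CITED1 and HOXB-AS4 sit low in the ATG7-/- libraries, and COL6A1, CD72, FMO1, BCAS4, MDK and ADGRB1 sit high there. The ATG12-/- points of most of these 12 genes lie near the wild-type ones. The 12 were picked with their values known, and genes with like changes in both knockouts, such as VAT1 and HELLPAR, are not shown.

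PIGQ and GALNT1 passed on TPM through short transcripts. PIGQ, which acts in the first step of glycosylphosphatidylinositol anchor synthesis, had 9.45, 5.86 and 11.7 TPM in ATG7-/- cells and 172, 140.1 and 95.1 TPM in wild-type cells (limma log2 fold change -3.71 ± 0.38, adjusted p = 0.0113). A 187-nt transcript with 1.99, 4 and 2 read equivalents in the wild-type libraries carried that difference, and with transcripts under 200 nt left out the PIGQ log2 fold change was 0.56. GALNT1, a mucin-type O-glycosylation enzyme, had 35.4, 16.2 and 26.04 TPM in ATG7-/- cells and 0.469, 1.73 and 0.541 TPM in wild-type cells (adjusted p = 0.0184), and a 272-nt transcript had 34.6, 15.0 and 24.0 of these TPM in ATG7-/- cells and 0 in wild-type cells. In read equivalents it had 11, 7 and 6 in ATG7-/- cells and 1, 10 and 5 in wild-type cells. Scaled by depth these were 12.3, 9.96 and 13.7 RPM in ATG7-/- cells and 2.07, 9.12 and 5.58 RPM in wild-type cells, groups that did not overlap but lay within 1 RPM of each other at their nearest, and the read-equivalent fit did not call the gene (adjusted p = 0.357, limma).

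The smallest adjusted p-values belonged to very short RNAs seen in a few reads. MIR215, the 110-nt precursor locus of miR-215 (chr1:220117853-220117962), was listed at 0 in ATG7-/- cells and at 150.3, 120.3 and 164 TPM in wild-type cells, which are 1, 2 and 2 read equivalents. Set against a floor of 3 read equivalents over the ATG7-/- group, its wild-type level was 1.37-fold higher, far less than the TPM fit gives (limma adjusted p = 1.18e-05). Such a fold takes the count of the higher group as observed, without its counting error. It is thus not a lower bound on the difference. RNU6-774P was at 0 in ATG7-/- cells and had 4, 1 and 2 read equivalents in wild-type cells, 1.92-fold above that floor. RNU6-445P and RNU6-1154P had 1 read equivalent in each wild-type library and none in ATG7-/- cells, which is at the floor, so no fold is given. U6 is the small nuclear RNA of the spliceosome's catalytic core, and its genome copies are hard to tell apart with 50-base reads. The mature arms of miR-215 are shown with the seed (bases 2 to 8) in capitals, to set the arms beside the 110-nt locus that was measured.
hsa-miR-215-5p (RefSeq, GRCh38.p14): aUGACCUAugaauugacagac
hsa-miR-215-3p (RefSeq, GRCh38.p14): uCUGUCAUuucuuuaggccaaua
Of 1239 annotated U6 loci, 190 were above 0 in any of the 6 libraries. Summed over them, U6 had 110.2, 118 and 117 RPM in ATG7-/- cells and 178, 131 and 190 in wild-type cells, and the groups did not overlap. Since the libraries are labelled large RNA, this sum need not be the U6 level of the cells. The other few-read calls that were at 0 in ATG7-/- cells had 3 to 11.1 read equivalents in wild-type cells (RN7SL398P, 3.06-fold above the floor, had the most). Those at 0 in wild-type cells had 3 to 6 in ATG7-/- cells, and RAC1P9 with 6 was 2.43-fold above the floor.

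A fit on the read equivalents, added after the TPM values had been seen, weighs each value by its depth. It tested 20804 genes and called 1113 (5.35%; limma voom with Benjamini-Hochberg adjustment): 748 higher (3.6%) and 365 lower (1.75%) in ATG7-/- cells, and 4076 genes had p below 0.05 without adjustment. Of the 18 TPM calls deep enough to enter, 10 of 12 higher and 4 of 6 lower genes were called here too. The median absolute log2 fold change of the called genes was 0.96 for the higher and 0.92 for the lower ones, so most differences were about 2-fold or less, and 350 higher and 155 lower genes passed 2-fold. Whichever of the 6 libraries was left out, 346 genes stayed called, 257 higher and 89 lower. The count was 520 without ATG7-/- library 2, 592 without wild-type library 3, and 567 without the 2 shallowest libraries, ATG7-/- library 3 and wild-type library 1. Adjusted p-values and log2 fold changes in the following paragraphs are from this fit unless TPM is named.

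**Figure D3:**
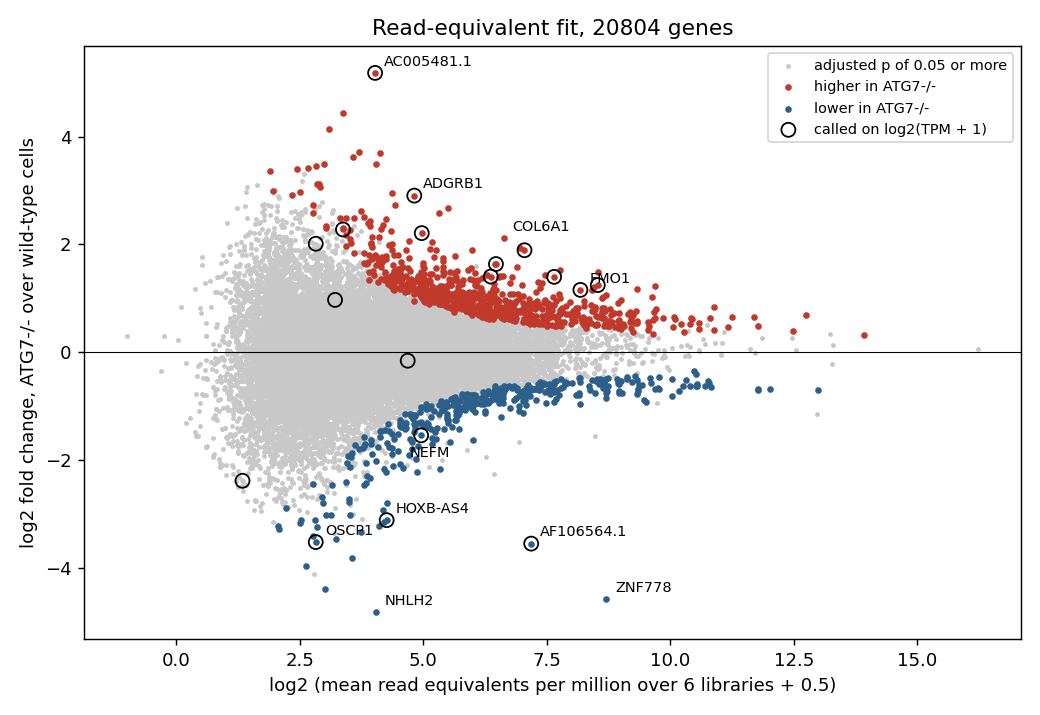
Log2 fold change of ATG7-/- over wild-type cells in read equivalents for each gene tested, against the log2 mean level over the 6 libraries. Red and blue points are genes called higher and lower, grey points were not called, and black circles mark genes also called on log2(TPM + 1). ZNF778 and AF106564.1 stand apart at the lower edge.

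ZNF778, a zinc finger gene on chromosome 16 (chr16:89217703-89237071), had the smallest adjusted p of the fit. It had 29.9, 29.7 and 37.7 RPM in ATG7-/- cells, 720.3, 710 and 612 in ATG12-/- cells and 892, 733 and 766 in wild-type cells. The 3 ATG7-/- libraries held 64.1 read equivalents in all against 1920 in the wild-type ones, and the gene fell by 4.57 ± 0.22 (adjusted p = 6.7e-15). Summed over its transcripts, ZNF778 had 0.891, 0.906 and 25.5 TPM in ATG7-/- cells and 70.8, 76.6 and 164 TPM in wild-type cells, and was not called on TPM (-4.35 ± 0.95, limma adjusted p = 0.116). Its 11031-nt coding transcript had 0.891, 0.906 and 1.08 TPM in ATG7-/- cells and 27.8, 21.1 and 24.2 TPM in wild-type cells (limma on transcripts, adjusted p = 0.000525).

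NEFM and NHLH2, both known from neurons, were also lower. NEFM had 11.2, 11.4 and 2.29 RPM in ATG7-/- cells and 29.02, 49.3 and 33.5 in wild-type cells, and fell by 2.08 ± 0.47 (adjusted p = 0.00631), and AF106564.1 on the opposite strand fell by 3.54 ± 0.27 (adjusted p = 6.5e-10). Since 38.3% of the leading NEFM transcript and 66.8% of AF106564.1 lie opposite each other, these need not be separate falls, in cells or in EVs: without a stated strand setting the pair cannot be told apart there. NHLH2, a neuronal basic helix-loop-helix factor, had 0, 1 and 0 read equivalents in ATG7-/- cells, 77, 78 and 34 in ATG12-/- cells and 16, 34 and 27 in wild-type cells. That is 63.3-fold lower in ATG7-/- than in wild-type cells, with an exact 95% counting interval of 11.04 to 2534 (adjusted p = 0.000577). The X-linked neighbours PIN4 and CITED1 overlap on opposite strands, and both fell. CITED1, a transcriptional co-regulator of the developing kidney, had 12.3, 25.6 and 16.0 RPM in ATG7-/- cells and 72.5, 62.0 and 37.9 in wild-type cells (fell by 1.60 ± 0.34, adjusted p = 0.00401). PIN4 fell by 1.54 ± 0.33 (adjusted p = 0.004). The 121 bases of the leading PIN4 transcript that lie opposite CITED1 are 21.0% of it, and how the counting used strand is not given in the sources used here, so the pair cannot be told apart there.

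HELLPAR, NEAT1, TTN and TKT were lower by smaller amounts. HELLPAR, a noncoding RNA of over 200 kb, had 7292, 5297 and 5661 RPM in ATG7-/- cells and 11010, 9782 and 9951 in wild-type cells (fell by 0.70 ± 0.09, adjusted p = 5.8e-06). NEAT1, the scaffold of nuclear paraspeckles, had 188, 175 and 233 RPM in ATG7-/- cells and 332, 359 and 343 in wild-type cells (fell by 0.80 ± 0.14, adjusted p = 0.000564). TTN, the giant muscle protein gene, fell by 0.62 ± 0.10 (adjusted p = 0.000115). TKT, transketolase of the pentose phosphate pathway, had 67.2, 93.6 and 80.2 RPM in ATG7-/- cells and 198, 186 and 153 in wild-type cells, and fell by 1.12 ± 0.18 (adjusted p = 0.000246). In all 4 genes the groups were apart. The called lower genes had a median gene span of 33.3 kb, against 20.3 kb for the called higher genes and 19.9 kb for all genes tested.

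Among the higher genes were COL6A1, DDR2, MDK, LGALS3BP and EMILIN3, which encode matrix, surface or secreted proteins. COL6A1, a chain of collagen VI, had 129, 171 and 185 RPM in ATG7-/- cells, 33.7, 48.9 and 44.9 in ATG12-/- cells and 24.9, 49.3 and 31.3 in wild-type cells, a rise of 2.12 ± 0.24 (adjusted p = 1.8e-06). DDR2, a receptor tyrosine kinase for fibrillar collagen, had 155, 165 and 169 RPM in ATG7-/- cells and 70.5, 86.7 and 73.7 in wild-type cells (1.09 ± 0.17, adjusted p = 0.000152). MDK, which encodes the secreted growth factor midkine, had 56.9, 81.1 and 54.9 RPM in ATG7-/- cells and 14.5, 31.0 and 13.4 in wild-type cells (1.70 ± 0.31, adjusted p = 0.000988). In each of the 3, every ATG7-/- library was above every wild-type one. LGALS3BP, a secreted glycoprotein that binds galectin-3, had 63.6, 59.8 and 50.7 RPM in ATG7-/- cells and 6.22, 15.8 and 19.1 in wild-type cells (2.05 ± 0.33, adjusted p = 0.00024). EMILIN3, a secreted protein of the elastin-associated EMILIN family, had 118, 127 and 121 RPM in ATG7-/- cells and 45.6, 52.0 and 54.7 in wild-type cells (1.27 ± 0.19, adjusted p = 0.000116). FSCN1, the actin-bundling protein fascin, rose by 1.41 ± 0.20 (adjusted p = 3.2e-05). CD72, FMO1 and BCAS4 rose here as on TPM, by 1.89 ± 0.19, 1.16 ± 0.14 and 1.40 ± 0.18. Their leading transcripts lie partly opposite TESK1, HMGB1P11 and TMSB4XP6, in that order, so part of their signal could belong to either strand. This limit holds on TPM too.

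ACSBG1, VAT1, MYBL2, WNK2 and LRRC14 were higher too. ACSBG1, an acyl-CoA synthetase for long-chain fatty acids, had 1047, 1292 and 1148 RPM in ATG7-/- cells and 453, 524 and 526 in wild-type cells (1.23 ± 0.11, adjusted p = 4.6e-08). Its leading transcript lies 41.0% opposite IDH3A, so part of that signal could belong to either strand. VAT1, a vesicle membrane protein, had 666, 1053 and 943 RPM in ATG7-/- cells and 439, 426 and 320.3 in wild-type cells (1.18 ± 0.14, adjusted p = 4.5e-06). MYBL2, a transcription factor of dividing cells, had 176, 187 and 172 RPM in ATG7-/- cells and 49.7, 91.2 and 42.4 in wild-type cells (1.58 ± 0.21, adjusted p = 1.5e-05). No library crossed over in any of the 3. WNK2, a kinase that regulates ion transport, had 88.2, 117 and 84.7 RPM in ATG7-/- cells and 41.5, 28.3 and 17.9 in wild-type cells (1.90 ± 0.26, adjusted p = 2.5e-05). LRRC14 had 199.7, 189 and 195 RPM in ATG7-/- cells and 66.3, 53.8 and 42.4 in wild-type cells (1.94 ± 0.19, adjusted p = 1.5e-07). Its leading transcript lies 55.1% opposite LRRC24, with the same strand limit.

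The ATG12-/- clone, which shares the wild-type libraries as its control, was set against the ATG7-/- clone directly. In read equivalents 528 of 20804 genes (2.54%) differed between the knockouts, 284 higher (1.37%) and 244 lower (1.17%) in ATG7-/- cells. On TPM 31 of 22471 did (0.138%), 17 higher (0.0757%) and 14 lower (0.0623%). Against wild-type cells the ATG12-/- clone had 2023 calls in read equivalents (9.72%), 1191 higher (5.72%) and 832 lower (4.0%). Some of the genes with the smallest p against wild-type differed between the knockouts and others did not pass. ATG7-/- cells were below ATG12-/- cells by a log2 difference of -4.42 for ZNF778 (adjusted p = 1.7e-14), -3.86 for AF106564.1 (5.4e-11), -2.77 for NEFM (0.00031), -2.61 for CITED1 (7.5e-06) and -3.33 for HOXB-AS4 (0.000739). They were above ATG12-/- cells by 1.53 for FMO1 (adjusted p = 1.9e-08), 1.76 for BCAS4 (7.5e-07), 1.88 for COL6A1 (1.8e-06), 1.40 for CD72 (3.5e-06), 1.58 for GK-AS1 (3.5e-06), 2.96 for ADGRB1 (1.4e-05) and 2.31 for MDK (5.3e-05). CITED1 and NHLH2 differed from wild-type in the other direction in ATG12-/- cells, where they were higher by 1.00 (adjusted p = 0.00206) and 1.04 (0.0035). For a further set of genes the difference between the knockouts did not pass: it was 0.01 ± 0.13 for VAT1 (adjusted p = 0.989), 0.22 ± 0.17 for MYBL2 (0.556), 0.35 ± 0.10 for ACSBG1 (0.0656), 0.18 ± 0.15 for NEAT1 (0.587), -0.03 ± 0.09 for HELLPAR (0.896) and -0.23 ± 0.19 for TKT (0.597). Their ATG12-/- values against wild-type were 1.17 for VAT1, 1.36 for MYBL2, 0.88 for ACSBG1, -0.98 for NEAT1, -0.67 for HELLPAR and -0.89 for TKT.

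EVs gave a separate set of libraries for the same genotypes. In read equivalents 305 of 18059 genes (1.69%) were called between ATG7-/- and wild-type EVs, 207 higher (1.15%) and 98 lower (0.543%). On TPM 24 of 17076 were (0.141%), 17 higher (0.0996%) and 7 lower (0.041%). The ATG7-/- effect itself differed between cells and EVs for 70 of 24647 genes on TPM (0.284%), 15 with a positive difference (0.0609%) and 55 with a negative one (0.223%). That fit was shifted as a whole, with a median log2 difference of -0.22 and 41.03% of genes above 0. Of the 70 genes, 41 were at 0 in all 6 EV libraries, so for them the difference restates the one in cells, and 28 were above 0 in both cells and EVs. Of the 1113 genes called in cells, 1058 were tested in EVs and 723 (68.3%) had the same sign there, against 55.2% of all 16977 genes tested in both. Genes called in both numbered 103. Of these 88 went the same way, which is 28.9% of the EV calls and 7.91% of the cell calls, and 15 went opposite ways. AF106564.1 had 136, 101 and 99.98 RPM in ATG7-/- EVs and 4980, 4980 and 4571 in wild-type EVs (fell by 5.20 ± 0.21, adjusted p = 4.9e-21), and its fall was larger in EVs than in cells by a test of that difference (1.83 on TPM, adjusted p = 0.0432). NEFM had 13.5, 33.5 and 40.5 RPM in ATG7-/- EVs and 396, 393 and 328 in wild-type EVs (fell by 4.08 ± 0.42, adjusted p = 6e-09). NHLH2 had 0 read equivalents in all 3 ATG7-/- EV libraries and 74, 10 and 74 in wild-type EVs, a wild-type level 67.4-fold above the floor of 3 over the group.

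ZNF778 fell in EVs by 3.16 ± 0.47 (adjusted p = 1.6e-05), PIN4 by 4.73 ± 1.06 (0.00788) and CITED1 by 4.29 ± 0.94 (0.00588). BCAS4 had 549, 404 and 462 RPM in ATG7-/- EVs and 193, 194 and 158 in wild-type EVs, a rise of 1.58 ± 0.20 (adjusted p = 4.8e-07). FMO1 rose by 1.25 ± 0.22 (0.000389), MDK by 2.06 ± 0.49 (0.0146), DDR2 by 0.98 ± 0.20 (0.00349) and MYBL2 by 0.84 ± 0.13 (3.9e-05). COL6A1 was not called in EVs, with a log2 fold change of 0.82 ± 0.30 (adjusted p = 0.191), and for CD72 the value was 0.97 ± 0.29 (0.0762). The genes called in opposite directions included abundant noncoding RNAs. RN7SK, the RNA that holds the elongation factor P-TEFb inactive, was higher in ATG7-/- cells by 0.65 and lower in ATG7-/- EVs by a log2 fold change of -1.02. RPPH1, the RNA of RNase P, was higher in ATG7-/- cells by 0.86 and at -1.34 in EVs.

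**Figure D4:**
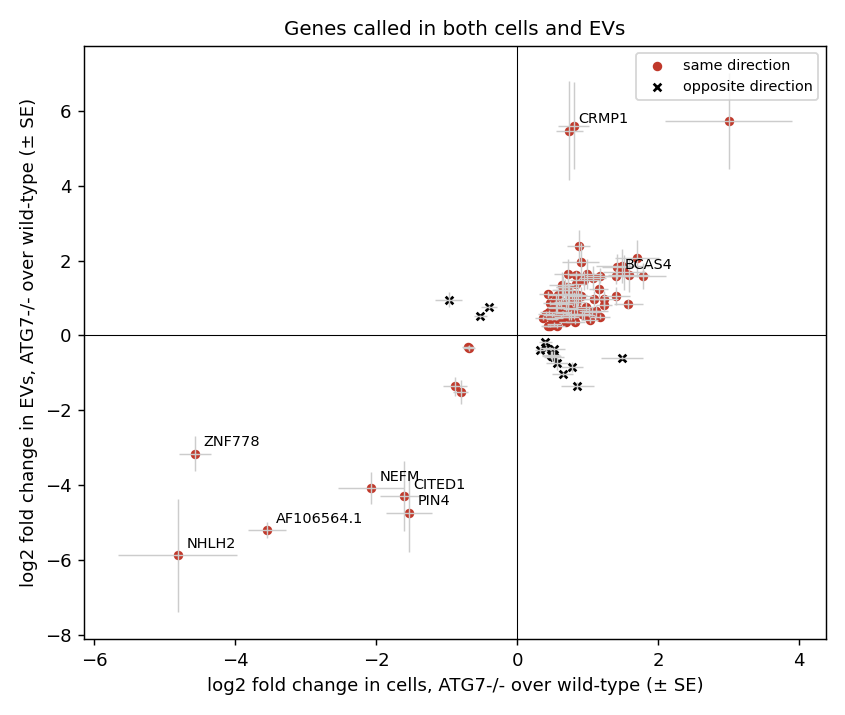
Log2 fold changes (ATG7-/- over wild-type, ± SE, read equivalents) in cells, on the horizontal axis, and in EVs, on the vertical axis, for the 103 genes called in both. Red points are the 88 with the same direction and crosses the 15 with opposite directions; AF106564.1, NEFM, NHLH2, CITED1, PIN4 and ZNF778 lie far into the lower left.

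Of 92 autophagy and lysosomal genes tested in read equivalents, 3 (3.26%) were called, against 5.35% of all genes, which is close to that background. On TPM HOXB-AS4 was the only list member called, and the counts that follow are in read equivalents. There 3.6% of all genes tested were called higher and 1.75% lower. The median log2 fold change over all genes tested was -0.03, with 48.13% of them above 0. Of the LC3 conjugation machinery (the enzymes and partners that act on LC3 and ATG12), 0 of 9 tested members were called, 8 were above 0 and the median was 0.40. In ATG12-/- cells, against the same wild-type libraries, the median of this list was 0.49. Of the ATG8 family (LC3 and GABARAP proteins), 1 of 6 was called. GABARAPL1, an LC3 relative, had 50.2, 52.7 and 54.9 RPM in ATG7-/- cells and 18.7, 31.0 and 22.3 in wild-type cells, a rise of 1.09 ± 0.27 (adjusted p = 0.0124), and it also differed from ATG12-/- cells (1.04, adjusted p = 0.0159). MAP1LC3B had a log2 fold change of 0.81 ± 0.33 that was not called (adjusted p = 0.154). Of 20 initiation genes, WDR45B, a phosphoinositide-binding protein, was higher by 2.62 ± 0.66 (adjusted p = 0.0142) on 17, 12 and 14 read equivalents in ATG7-/- cells and 0, 5 and 4 in wild-type cells. Of 19 cargo receptors 0 were called, and of 38 lysosomal genes CTSD, the protease cathepsin D, was higher by 0.85 ± 0.25 (adjusted p = 0.0389).

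Sterol synthesis and glycolysis each held 4 calls. In sterol synthesis 4 of 23 members were higher and none lower, 19 were above 0 and the median was 0.55. SQLE, squalene epoxidase, had 324, 342 and 318 RPM in ATG7-/- cells and 129, 187 and 205 in wild-type cells (0.93 ± 0.15, adjusted p = 0.000217). FDFT1, SC5D and ACAT2, which act at other steps of the sterol route, were higher by 1.03, 1.27 and 0.77. The leading ACAT2 transcript lies 45.8%, 34.8% and 12.5% opposite SOD2-OT1, SOD2 and TCP1, so part of its signal could belong to either strand. In ATG12-/- cells, set against the same wild-type libraries, the sterol median was 1.03. In glycolysis 4 of 20 members were higher and none lower, with a median of 0.43: HK1, hexokinase 1, had 135, 159 and 165 RPM in ATG7-/- cells and 71.7, 86.8 and 58.3 in wild-type cells (1.09 ± 0.18, adjusted p = 0.000372). PKM, LDHA and LDHB were higher by 0.75, 0.92 and 0.77. In ATG12-/- cells, against the same wild-type libraries, the glycolysis median was 0.65 and 8 members were called. Set against each other, the knockouts differed in 1 glycolysis member. Of the fatty acid list FASN, the fatty acid synthase, rose by 0.95 ± 0.20 (adjusted p = 0.00275), 1 of 11. Of 20 chaperones and translocon genes of the endoplasmic reticulum, HYOU1 and HSP90B1 rose by 0.76 and 1.08, and HYOU1 was lower in ATG7-/- than in ATG12-/- cells (-0.67, adjusted p = 0.000845).

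Among the other lists, 2 of 27 cell cycle genes were higher, E2F1 by 1.43 ± 0.27 (adjusted p = 0.00115) and TOP2A by 1.34 ± 0.35 (0.02), with a list median of 0.48. The cell cycle median of ATG12-/- cells, against the same wild-type libraries, was 0.47. SRF, the serum response factor, was the 1 call of 14 serum-response genes (1.09 ± 0.21, adjusted p = 0.00165). Of 9 nuclear long noncoding RNAs, NEAT1 and KCNQ1OT1 fell and the median was -0.48, against -0.38 in ATG12-/- cells with the same wild-type libraries. Of 24 very long mRNAs, PLEC and KMT2D were higher and TTN, VPS13B and SYNE2 were lower. The counts were 0 of 68 for the respiratory chain and 0 of 31 for the proteasome. In the HEK293 marker list, LHX1 had 17, 9 and 3 read equivalents in ATG7-/- cells and 0, 2 and 1 in wild-type cells, 11.8-fold higher with an exact 95% counting interval of 3.64 to 60.3 (adjusted p = 0.01796), and NEFM was lower.

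**Figure D5:**
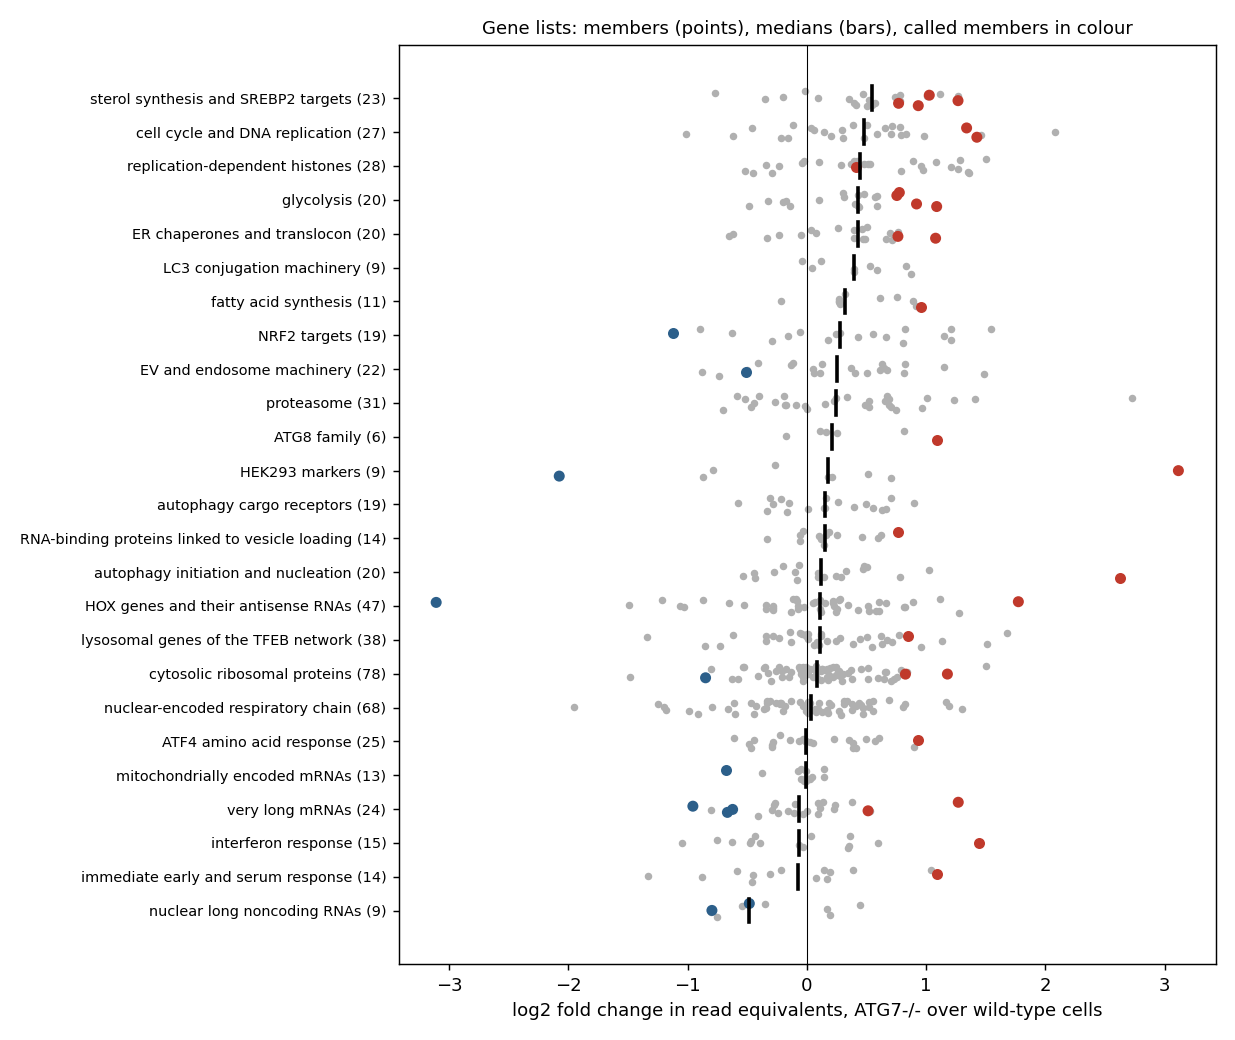
Log2 fold change in read equivalents, ATG7-/- over wild-type cells, for the members of each gene list (points, with the number tested in brackets) and the list median (black bar). Called members are red where higher and blue where lower; sterol synthesis has the median 0.55 and nuclear long noncoding RNAs the median -0.48.

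Many called genes face another gene. Of the higher genes 63.4% had an exon of another gene on the opposite strand, of the lower genes 43.0%, and of all genes tested 42.2%. Of 2709 antisense RNAs tested, 133 (4.91%) were called higher and 41 (1.51%) lower, and of 13483 coding genes 541 (4.01%) higher and 211 (1.56%) lower. Of 1684 lincRNAs 27 (1.6%) were higher and 55 (3.27%) lower, and of 1557 pseudogenes 20 (1.28%) were higher and 28 (1.8%) lower. Some features annotated as antisense were far denser than the mRNA they face. Of 365 noncoding features with at least 90% of the leading transcript opposite exons of a coding gene, 337 (92.3%) in ATG7-/- cells and 328 (89.9%) in wild-type cells had more reads per base than that gene, with a median ratio of 12.1 in ATG7-/- and 10.5 in wild-type cells. AC005841.1 is such a feature. It had 3230, 4959 and 4119 TPM in ATG7-/- cells and 1670, 1653 and 1982 TPM in wild-type cells, and rose by 1.27 ± 0.18 (limma on TPM, adjusted p = 0.0463). Its coding partner FKBP4, an HSP90 co-chaperone, had 161, 178 and 206 RPM in ATG7-/- cells and 118, 101 and 88.2 in wild-type cells (0.86 ± 0.16, adjusted p = 0.00135). The last exon of AC005841.1 is shown with its 135 bases opposite FKBP4 coding sequence in capitals, which leaves 2 of 137 bases outside.
AC005841.1 last exon (chr12:2797136-2797272, minus strand, GRCh38): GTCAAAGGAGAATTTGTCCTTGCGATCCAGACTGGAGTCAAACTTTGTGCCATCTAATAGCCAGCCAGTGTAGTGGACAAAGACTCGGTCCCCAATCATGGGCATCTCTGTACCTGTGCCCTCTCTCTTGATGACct
The library kit marks strand, but the strand setting of the authors' quantification is not given in the sources used here, so such a feature and its coding partner cannot be told apart. Of 356 features of this kind with a tested partner, 53 (14.9%) were called, against 5.35% of all genes, with 53 higher and 0 lower. Their partners had the same sign for 44 (83.0%), against 65.4% of all 356. Of these 53 partners 16 were called in the same direction and 1, ZNF778, in the opposite one: AC009113.2, which faces it, was higher by 1.22 (adjusted p = 0.00798). Among the partners of all 356 features, 29 (8.15%) were called. AC114947.2, wholly opposite HMGCS1 of sterol synthesis, had 263, 342 and 290 TPM in ATG7-/- cells and 138, 115 and 163 TPM in wild-type cells (in read equivalents 1.21 ± 0.14, adjusted p = 2.1e-06), while HMGCS1 itself was at 0.78 ± 0.44 (0.333). AC011603.2, opposite the tubulin gene TUBA1B, was higher by 0.69 ± 0.09 (adjusted p = 9.3e-06) and TUBA1B by 0.69 ± 0.18 (0.0197). AC145207.2, opposite ARHGDIA, was higher by 1.00 ± 0.14 (2.9e-05) and ARHGDIA by 1.15 ± 0.16 (3.8e-05).

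Shares of RNA classes were compared over the 6 libraries. Antisense genes held 18.1%, 19.6% and 18.04% of TPM in ATG7-/- cells and 15.8%, 16.2% and 17.0% in wild-type cells, and pseudogenes 7.17%, 6.59% and 6.91% in ATG7-/- cells and 8.44%, 8.03% and 8.06% in wild-type cells. Both classes were apart without overlap, and the exact permutation p was 0.1, the smallest that 3 against 3 allows, so neither can pass 0.05. As shares of read equivalents the means kept that order, with 14.4% ± 0.40 and 13.1% ± 0.27 for antisense genes and 3.46% ± 0.15 and 3.97% ± 0.10 for pseudogenes in ATG7-/- and wild-type cells (SD, n = 3 each; exact p = 0.1). Protein-coding genes held 20.9% ± 0.87 of TPM in ATG7-/- and 19.8% ± 0.69 in wild-type cells (exact p = 0.3), and mitochondrial genes 14.8% ± 1.70 and 14.5% ± 0.87 (exact p = 0.8). Genes with at least 1 TPM numbered 19751, 18826 and 18464 in ATG7-/- cells and 19716, 20283 and 20510 in wild-type cells (exact p = 0.2).

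At the level of transcripts, 129 of 36733 (0.351%) were called on log2(TPM + 1), 64 higher and 65 lower in ATG7-/- cells, from 128 genes of which 41 were called as genes. The count was 79 without ATG7-/- library 2 and 66 without ATG7-/- library 3. It was 46, 75 and 59 without wild-type library 1, 2 and 3, in that order. Of these transcripts 57 had at most 10 read equivalents over the 6 libraries, 23 were under 300 nt and 30 were of protein-coding type. The 2035-nt coding transcript of CD72 had 37.2, 39.6 and 37.2 TPM in ATG7-/- cells and 7.19, 12.6 and 9.82 TPM in wild-type cells (1.96 ± 0.26, limma on transcripts, adjusted p = 0.0283). The leading BCAS4 transcript, of 1498 nt and annotated for nonsense-mediated decay, had 47.5, 86.2 and 55.5 TPM in ATG7-/- cells and 16.4, 12.6 and 11.5 TPM in wild-type cells (2.21 ± 0.27, adjusted p = 0.0216). In NPDC1 the leading transcript was a 506-nt retained intron with 95.8, 94.3 and 101 TPM in ATG7-/- cells and 27.1, 35.5 and 39.1 TPM in wild-type cells (1.61 ± 0.23, adjusted p = 0.0411).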

How the data were processed

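The authors deposited 1 table of TPM for 203027 transcripts in 18 libraries. Per the labels' protocols, the kit marks strand, PCR ran for 22 cycles and reads were single ends of 50 bases. Salmon 0.14 and DESeq2 are named in the submitters' processing notes, without a stated role. Build, annotation and strand setting: not given in the sources used here. Values of short RNAs are sensitive to single reads, because they are divided by a small effective length.

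Transcripts were matched by identifier to GENCODE 29 (GRCh38, the source of all coordinates): 202941 matched and 86 did not, holding at most 0.0384% of a library. TPM were summed to 57865 genes, scaled by the median of ratios, and tested on log2(TPM + 1) with limma 3.58.1 (R 4.3.3, mean-variance trend, both-sided) over the 9 cell libraries, for genes with at least 1 TPM in 3 libraries. A fold change on this scale understates low genes. Benjamini-Hochberg adjusted p-values under 0.05 were called. A count test had been the first choice in case counts were given, and limma replaced it because they were not.

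After the data were seen, read equivalents were derived from the steps of low TPM values, with effective lengths for fragments of 250 ± 25 nt; other lengths tried gave at most 20% whole values. They were tested with limma voom for genes with at least 3 in 3 libraries; they are inferred, not counted, values. Depth was 436825 to 1095999 read equivalents in the 6 libraries, and exact intervals cover counting error only. The floor of 3 stands for counting error in the group at 0, while the count of the other group is taken as observed. Both fits were tested on simulated data, drawn as normal values for the TPM fit and as whole counts for voom. Inferred fractions of reads and reads shared between strands were not simulated. Class shares were compared with exact permutation tests, where 3 against 3 allows no p below 0.1. U6 and other repeated or pseudogene copies, whose reads can be split between loci, are uncertain.

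The members and 29 gene lists were chosen with earlier results of these data known. Named are ATG7, ATG12, genes called on TPM, their opposite-strand genes, and list members that were called or among the 4 with the smallest p. In the read-equivalent fit, the genes with the smallest p (25 per direction) and other genes were added after their values were seen, and the text prints some of them. Same-numbered replicates did not deviate together (Pearson -0.03, 0.00 and -0.02), so no block was used. Some list members and sequences are not reported here.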

Additional observations from a re-analysis of the deposited data

Results flagged for a closer look

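For 26 genes the ATG7-/- effect in cells differed from that in EVs by a test of the difference itself (limma on log2(TPM + 1) over 18 libraries, 70 of 24647 genes called, 0.284%). All 26 were also called in cells, on TPM or in read equivalents, so they need not stand for all 70. Values are the log2 effect in cells minus that in EVs. Of the 26, 20 were at 0 in all 6 EV libraries, so their difference restates the effect in cells, depends on the pseudocount and says nothing of EVs. The 6 with EV reads were AF106564.1, AC116353.5, AL138963.3, RN7SK, RPPH1 and AC021224.1. For genes called lower in cells the difference was -7.41 for MIR215, -6.80 for RNU6-1154P, -6.78 for RNU6-445P, -7.77 for RNU6-774P, -7.62 for RNU7-18P and -6.52 for SNORA49. It was -4.99 for RN7SL398P, -5.36 for RN7SKP67, -5.20 for EIF4E2P1, -4.30 for AL445933.2, -2.60 for AC126407.1 and -6.76 for AC116353.5. It was -2.78 for AC069545.1, -3.42 for AC008147.1, -2.61 for AC019080.2 and -3.90 for AC131055.1. AF106564.1, lower in both, had 1.83, since its fall was larger in EVs. For genes called higher in cells it was 3.10 for AC017002.3, 2.48 for AC015726.3, 2.80 for RAC1P9, 2.30 for AC117383.1 and 1.67 for TDGF1P7. Among well-read genes it was 1.46 for RN7SK, 2.03 for RPPH1, -1.03 for AL138963.3 and -1.40 for AC021224.1.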

How the results depend on the processing

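With at most 10 read equivalents in the higher group behind 19 of 26 lower and 7 of 19 higher calls on TPM, depth limits how well their size is known. The 45 genes called became 28 with a pseudocount of 5, 26 with at least 5 TPM, 4 among protein-coding genes alone, 13 with the replicate block, and 5 to 48 when 1 library was left out (5 without wild-type library 1, 11 without wild-type library 3). The 129 transcripts became 203 with a pseudocount of 0.1, 61 with 5, 49 without a filter, 35 with the replicate block, and 46 to 145 when 1 library was left out. Against ATG12-/- cells the block gave 9. In EVs no filter gave 8 and the block 9. For the difference between cells and EVs the counts were 32 with at least 5 TPM, 45 without scaling, 27 with sample weights and 45 with the block. In read equivalents 373 genes were called among those with no opposite exon, 567 without the 2 shallowest libraries, 1535 with the block, and 520 to 1164 when 1 library was left out. Deviations of same-numbered libraries on log2(TPM + 1) had correlations from -0.03 to 0.05 (ATG7-/- and wild-type cells, both knockouts, and EVs). The block moved calls down on TPM and up in read equivalents. Whether same-numbered libraries share a batch was not tested. ATG7 changed sign on TPM without scaling (-0.0093) and with sample weights (-0.051), and ran from -0.15 to 0.23 when 1 library was left out. ATG12 ran from -0.16 to 0.51 in the same way. PIGQ changed sign with transcripts under 200 nt left out (0.56). The mitochondrial share difference (percentage points, ATG7-/- minus wild-type) ran from -0.70 to 0.78 when 1 library was left out and was -0.17 without the 10 most abundant transcripts. The share of those 10 ran from -0.11 to 1.51 and was -0.33 in read equivalents, where the small RNA share difference was 0.065. When 1 library was left out, the differences ran from 1.72 to 2.56 for antisense genes, -1.43 to -1.14 for pseudogenes, -1.49 to -0.60 for lincRNAs, 0.70 to 1.60 for protein-coding genes, -1.57 to -0.46 for small RNAs and -0.47 to -0.13 for other genes, and from -1525 to -881 for the number of genes with at least 1 TPM. The cause of these shifts was not tested. Of the named genes on TPM, 128 values with 1 library left out and 126 under other settings kept their direction but no longer passed; in read equivalents these were 105 and 32, and none reversed.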
